A study of Homo sapiens with 16 samples.

Results

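HNF4A binding in mitotic cells was set against HNF4A binding in S-phase cells of the same line. The material is every row of 2 deposited ChIP-seq peak lists, 1 of 2413 peaks from cells held in M phase and 1 of 15437 peaks from cells held in early S phase. Together these are 17850 of the 146596 peaks in the 12 lists of the series. The cells are LoVo, an established human colon adenocarcinoma line; peak lists hold no expression against which markers of the line could be checked. M-phase cells had 1 block of 12 h in 2 mM thymidine and then 8 h in 200 ng/ml nocodazole, a drug that stops spindle assembly. S-phase cells had 2 blocks of 12 h in 2 mM thymidine with 8 h without it in between. The same antibody to HNF4A was used in both phases, and each list was called against the rabbit IgG library of its own phase. There was 1 library per phase, so no test across samples exists, no p-value is given, and a difference between the phases cannot be told apart from a difference between these libraries. Intervals are 95% intervals over peaks and cover counting error only.

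HNF4A is a nuclear receptor of liver, kidney and gut epithelium. It binds DNA as a homodimer at direct repeats of a short half-site and keeps epithelial genes active. During mitosis chromosomes condense and most transcription stops, and some DNA-binding factors leave the chromosomes while others stay at a part of their sites. The other proteins mapped in these cells are KLF5, a zinc-finger factor of gut epithelium, MYC, a helix-loop-helix factor of growing cells, RAD21, a subunit of the cohesin ring, and CTCF, the zinc-finger protein at which cohesin stops on DNA. They are called partners here where their peaks overlap an HNF4A peak by at least 1 bp.

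After removal of repeated tags the HNF4A libraries held 16813394 tags in M phase and 12182221 in S phase, a ratio of 1.38. Their IgG controls held 6875106 tags in M phase and 10753369 in S phase, so that the M-phase library was 2.45 times its control and the S-phase library 1.13 times. The labels give the M-phase rabbit IgG control a number of peaks, 2118, that is also how many peaks KLF5 has in M phase, and do not say why. Whether these M-phase libraries were exchanged could not be settled from the labels, and an exchange would change what M-phase KLF5 values, and lists called against that control, stand for. The labels head both peak numbers with a false discovery rate (FDR) under 5%, but the authors' FDR in the lists was at least 5.88% for every M-phase HNF4A peak and at most 3.17% for every S-phase one. It was 100% for 1902 of the 2413 M-phase peaks, which were 1420 of the 1927 shared ones (73.7%) and 482 of the 486 found only in M phase (99.2%). Histone H3 peaks, the chromatin control, overlapped 4 M-phase HNF4A peaks in M phase and 66 S-phase HNF4A peaks in S phase.

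Most mitotic HNF4A peaks lay at sites that S-phase cells also had, and the S-phase list held many more sites. An M-phase and an S-phase peak were counted as 1 shared site when they overlapped by at least 1 bp. Of the M-phase peaks, 1927 (79.9%, exact Clopper-Pearson interval 78.2 to 81.4%) overlapped an S-phase peak, and 486 (20.1%) were listed only in M phase. Of the S-phase peaks, 1901 (12.3%, 11.8 to 12.8%) overlapped an M-phase peak, and 13536 (87.7%) were listed only in S phase. The partner lists, called at the same p-value cutoff, are the background for these shares. CTCF was called against goat IgG and the other proteins against rabbit IgG. The S-phase partner lists also differ in length, from 5928 peaks for KLF5 to 28474 for CTCF. Of the M-phase peaks, 82.8% in the CTCF list, 82.0% in the RAD21 list, 76.3% in the MYC list and 32.3% in the KLF5 list overlapped an S-phase peak of the same protein. Of the S-phase peaks, 69.4% of CTCF, 69.7% of RAD21, 12.6% of MYC and 11.4% of KLF5 peaks overlapped an M-phase peak. The HNF4A share of the S-phase list was thus near those of MYC and KLF5, and its share of the M-phase list lay between those of MYC and RAD21.

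The sites shared by the phases were the strong ones of the S-phase list. Shared S-phase peaks had a median of 70 tags, with quartiles of 48 and 100, and peaks found only in S phase had a median of 28 tags, with quartiles of 20 and 41. Their median fold enrichment over IgG, the authors' own value, was 19.3 for shared and 9.27 for S-only peaks. Their median width was 1487 bp for shared and 1111 bp for S-only peaks. The share found in M phase was 0.576% for S-phase peaks of fewer than 20 tags (18 of 3127) and 8.74% for peaks of 30 to 49 tags (396 of 4533). It was 47.2% for peaks of 75 to 99 tags (382 of 810) and 82.2% for peaks of 150 to 199 tags (97 of 118, 74.1 to 88.6%). Above that the share no longer differed beyond its interval: 42 of the 51 peaks with 200 tags or more were shared (82.4%, 69.1 to 91.6%). Strength by the MACS score, which is -10 times the log10 of the peak's p-value, gave the same picture. Among 10 equal groups the share was under 4% in each of the weakest 6, and it was 12.7% in the eighth, 27.3% in the ninth and 63.4% in the strongest.

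**Figure D1:**
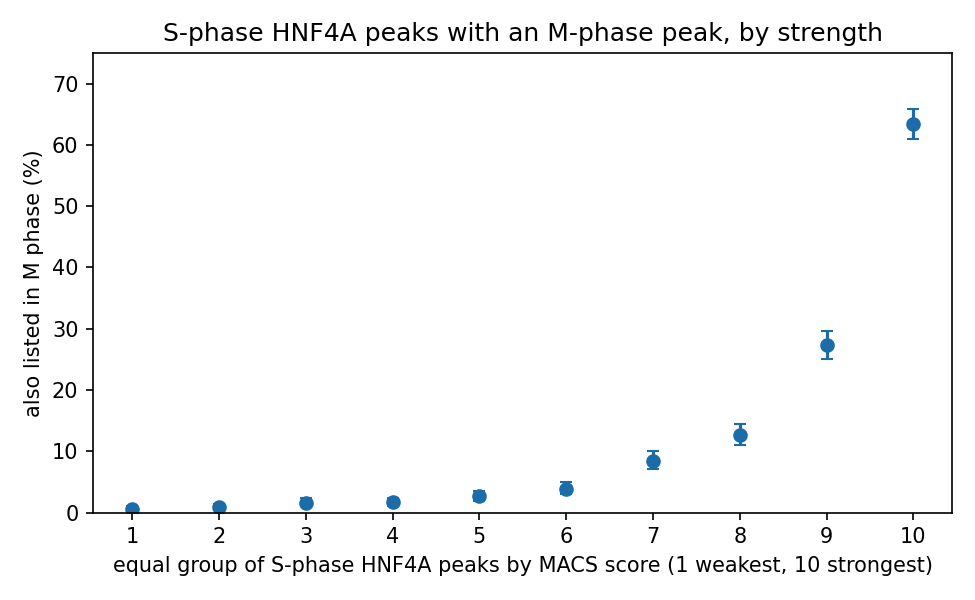
Share of S-phase HNF4A peaks with an overlapping M-phase HNF4A peak (vertical axis, percent) in 10 equal groups of the S-phase list by MACS score (horizontal axis, weakest to strongest). Points are shares over about 1544 peaks each and bars their exact 95% intervals; the share is 0.583% in the weakest group and 63.4% in the strongest.

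The converse held for the M-phase list, where the peaks without an S-phase counterpart were nearly all close to the caller's cutoff, a score of 50. M-phase peaks at shared sites had a median of 26 tags, a median width of 782 bp and a median score of 81.8. M-only peaks had a median of 14 tags, a median width of 532 bp and a median score of 54.7. A score under 60 was found for 423 of the 1927 shared M-phase peaks (21.95%) and for 372 of the 486 M-only peaks (76.5%). Of the 683 M-phase peaks with a score of at least 100, 676 overlapped an S-phase HNF4A peak. In the weakest of 10 equal groups of the M-phase list, 107 of 242 peaks did (44.2%, 37.9 to 50.7%).

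The 7 M-only peaks with a score of at least 100, looked up after their values were seen, included wide regions of low fold enrichment. On chromosome 2, 3 of them lay within 20 kb of each other: from 90960400 to 90964300 with 260 tags at 5.44-fold, from 90972708 to 90975924 with 154 tags at 7.81-fold, and from 90977224 to 90977933 with 40 tags at 7.92-fold. Positions here and below are in the human build hg18, as in the files. A further pair lay at the ends of chromosome 4, from 55546 to 58690 with 113 tags and from 190837884 to 190840490 with 85 tags and an H3 peak. The other two lay on chromosome 1 from 150227224 to 150228031 (28 tags), 3566 bp from an S-phase HNF4A summit and at S-phase KLF5 and RAD21 peaks, and on chromosome 7 from 16150463 to 16151436 (34 tags).

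At shared sites the mitotic peak sat on the same spot as the S-phase peak. The summit is the base of highest tag pile-up that MACS gives for each peak. At the 1873 sites with 1 peak in each list, the M-phase summit was a median of 58 bp from the S-phase summit (95% interval of the median 55 to 62 bp), with quartiles of 27 and 110 bp. Summits lay within 20 bp of each other at 349 sites (18.6%), within 100 bp at 1346 sites (71.9%, 69.8 to 73.9%) and within 200 bp at 1691 sites (90.3%). The median shift had no side: the M-phase summit was at the higher coordinate at 905 sites, at the lower at 957 and on the same base at 11, and the median signed shift was -3 bp (-8 to 2). The spread reached somewhat farther to lower coordinates, with quartiles of -64 and 53 bp and 5 and 95 percentiles of -221 and 174 bp. The S-phase summit lay inside the M-phase peak at 1819 sites (97.1%). The distance was a little shorter at strong mitotic peaks. The median was 52.5 bp (48 to 56) in the strongest of 3 equal groups by M-phase tags and 64 bp (56 to 71) in the weakest.

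**Figure D2:**
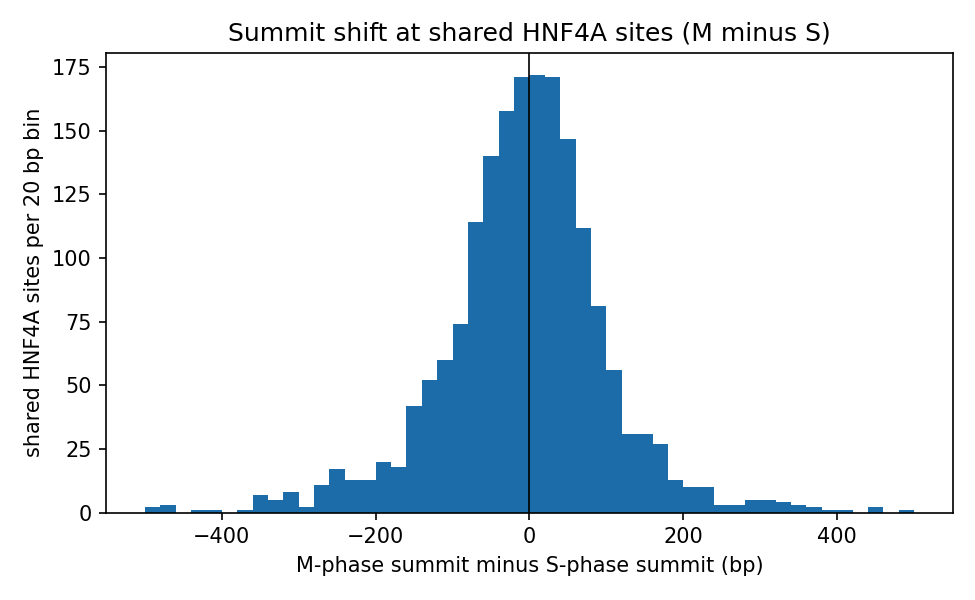
Distance from the S-phase to the M-phase summit (horizontal axis, M minus S, in bp) at shared HNF4A sites with 1 peak in each list (vertical axis, sites per bin of 20 bp). The 49 sites with more than 500 bp are not drawn; the bars are centred near 0, with 71.9% of all sites within 100 bp.

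Against the other proteins, HNF4A summits of the phases lay closer together than those of KLF5 and MYC and farther apart than those of RAD21 and CTCF. The same median distance, over sites with 1 peak in each list, was 35 bp for CTCF (35 to 36, 19311 sites), 41 bp for RAD21 (40 to 42, 18670 sites), 81 bp for MYC (74 to 89, 1459 sites) and 101 bp for KLF5 (88 to 113, 659 sites). None of these intervals overlaps the 55 to 62 bp of HNF4A. The M-phase peaks at these sites had a median tag count of 26 (HNF4A), 43 (RAD21), 34 (CTCF), 29 (MYC) and 16 (KLF5). The part of tag number in the distances was not tested.

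The mitotic HNF4A peaks were narrower than the S-phase ones and nested within them. The median width was 780 bp in M phase and 1482 bp in S phase, and the median of the ratios M over S was 0.52 (0.51 to 0.53). Only 7 of the 1873 sites had a wider peak in M phase, and at 1726 (92.2%) the whole M-phase peak lay inside the S-phase peak. The M-phase edges lay inside the S-phase edges by about the same amount on both sides, a median of 329 bp at the lower coordinate and 343 bp at the higher. The fragment size that MACS estimated was 176 bp in M phase and 240 bp in S phase. The widths and this estimate thus moved in the same direction, and its part in the widths was not tested. Requiring 50% of each peak to be shared removes pairs with a narrow mitotic peak, and the ratio was 0.61 over the pairs that remained. The median width ratio was also below 1 for KLF5 (0.529), CTCF (0.616) and MYC (0.661). For RAD21 it was 1.14 (1.14 to 1.15), and 73.2% of its shared sites had the wider peak in M phase. The estimated fragment size in M and S phase was 224 and 287 bp for KLF5, and 191 and 308 bp for CTCF. It was 262 and 278 bp for MYC, and 226 and 213 bp for RAD21. For each protein the estimate was thus larger in the phase with the wider peaks, and its part in these ratios was not tested.

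Fewer HNF4A tags were counted at shared sites in M phase, for the size of the library, at every site. Scaled to 1000000 filtered tags, sites had a median of 1.55 tags in M phase and 5.75 in S phase, and the median ratio M over S was 0.28 (0.27 to 0.28), with a lowest ratio of 0.05 and a highest of 0.94 over the 1873 sites. The median ratio was below 1 for every other protein too, at 0.286 for MYC, 0.330 for CTCF, 0.513 for KLF5 and 0.745 for RAD21. These sums are taken over peaks of unequal width. Per kb of peak the medians were 1.94 tags per 1000000 in M phase and 3.65 in S phase. The median ratio per kb was 0.55 (0.54 to 0.56), and it was above 1 at 35 sites. The weaker S-phase sites had the higher ratios: 0.35 (0.34 to 0.36) in the weakest and 0.24 (0.23 to 0.24) in the strongest of 3 equal groups of shared sites by S-phase score. A weak S-phase site enters the shared class only if its mitotic peak passed the cutoff, and the lowest M-phase peak had 12 tags, so that its low ratios are not in the list. Across sites the tag counts of the phases had a Spearman rho of 0.66 (n = 1873 sites, each measured in the same 2 libraries).

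**Figure D3:**
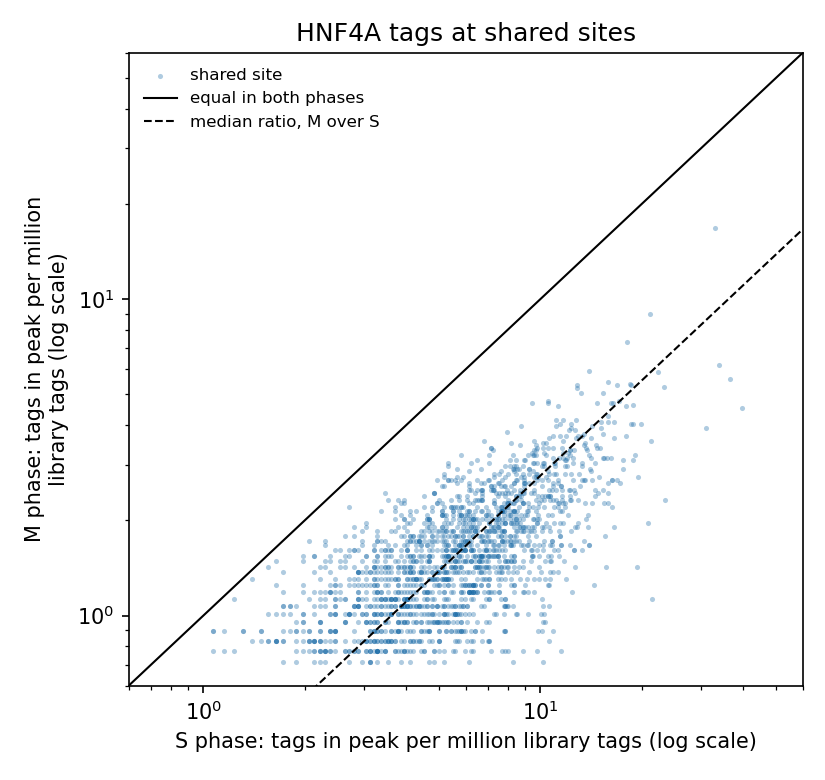
HNF4A tags per 1000000 library tags at 1873 shared sites, M phase (vertical axis) against S phase (horizontal axis), both on log scales. Each point is a site; all points lie under the solid line of equal values, and the dashed line marks the median ratio of 0.28.

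The 6 shared sites of highest mitotic fold enrichment differed in their partners. The first (chromosome 5, 59087615 to 59088533) had 79 tags at 38.43-fold in M phase and 115 tags at 51.36-fold in S phase, with summits 32 bp apart. No partner was listed there in either phase. The next, on chromosome 8 from 101949843 to 101951075, held 91 tags in M phase with KLF5 and RAD21, and 225 tags in S phase with KLF5 alone. On chromosome 10 from 129560837 to 129561841 there were 54 tags in M phase and 149 in S phase, with summits 4 bp apart and RAD21 and CTCF in both phases. On chromosome 12 from 99969720 to 99970748 there were 70 tags in M phase with RAD21, and 136 in S phase with no partner. The site on chromosome 7 from 105304507 to 105305673 held 99 tags in M phase with RAD21, and 273 tags in S phase with MYC, RAD21 and CTCF. The sixth, on chromosome 9 from 18813715 to 18814626, held 49 tags in M phase and 102 in S phase, again with RAD21 and CTCF in both. In M phase RAD21 was listed at 5 of these 6 sites, KLF5 at 1 and MYC at 0, beside 20.2%, 7.73% and 5.35% of all shared M-phase peaks.

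The S-phase sites of highest tag count without a mitotic peak within 1000 bp were broad, and each held KLF5 and MYC in S phase. The leading one (chromosome 15, 38424709 to 38429531) had 319 S-phase tags over 4823 bp together with KLF5, MYC, RAD21 and CTCF peaks, and RAD21 and CTCF were still listed there in M phase. On chromosome 2 from 43005599 to 43010274, 278 tags at 25.69-fold lay with the same 4 partners in S phase and with none in M phase. On chromosome 22 from 36835822 to 36838874, 224 tags at 33.69-fold lay with KLF5 and MYC in S phase, and again no partner was listed in M phase. The remaining 3 of the first 6 lay together on chromosome 7, between 27156090 and 27186852. They held 269, 206 and 201 tags at only 4.81-, 4.73- and 8.58-fold over widths of 7595, 6401 and 3657 bp. In M phase KLF5, MYC and CTCF were listed at the one of 269 tags. MYC, RAD21 and CTCF were listed at that of 206 tags, and RAD21 and CTCF at that of 201. A ranking by tags summed over the peak favours broad peaks. Of all S-only peaks, 15.3% held both KLF5 and MYC in S phase, and their median width was 1111 bp. The part of width in the partner overlaps of these 6 sites was not tested.

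Large summit shifts lay mostly in broad S-phase peaks, with exceptions. At the 49 sites with summits more than 500 bp apart the S-phase peak had a median width of 2246 bp (2027 to 2657), against 1463.5 bp (1440 to 1492) at the other 1824, and 4 of the 49 were not wider than the median of all 1873. The M-phase summit lay inside the S-phase peak at 1872 of the 1873 sites. The width of that peak thus limits the distance, and a part of this contrast is fixed in advance. Among shared sites with an M-phase score of at least 100, the largest distance was 1223 bp, on chromosome 7 from 116236567 to 116238713 (90 tags in M phase, 226 in S phase). The next was 1186 bp, on chromosome 2 from 200949381 to 200951483 (88 tags in M phase, 157 in S phase). In 26 S-phase peaks, with a median width of 2902.5 bp, the mitotic list had 2 or more separate peaks. The S-phase peak on chromosome 11 from 75535659 to 75538673 held 167 tags and 3 M-phase peaks of 24, 18 and 25 tags, with summits 75, 829 and 1713 bp above the S-phase summit. On chromosome 1 from 12597643 to 12602589, a peak of 218 S-phase tags held 2 M-phase peaks of 33 and 26 tags, whose summits were 3057 bp apart.

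Spacing between neighbouring HNF4A peaks differed little between shared and S-only sites. From a shared S-phase summit the nearest other S-phase HNF4A summit lay at a median of 19591 bp (17761 to 21766), and from an S-only summit at 24708 bp (23656 to 25638). A neighbour within 10000 bp was present at 34.7% of shared and 30.8% of S-only peaks, a difference of 3.87 percentage points (Newcombe interval 1.62 to 6.17). Within groups of like strength, standardised over 10 groups of the S-phase score, the difference was 0.604 points (-2.20 to 3.40). The mitotic list was sparse: the nearest other M-phase summit was a median of 213508 bp from a shared M-phase summit and 457913 bp from an M-only summit. M-only summits were a median of 115755 bp from the nearest S-phase HNF4A summit, and 3 of the 486 had one within 1000 bp.

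Where only some of the S-phase HNF4A peaks in a run were found in M phase, the strongest was usually among them. Summits were chained into a run when each was within 10000 bp of the next, which gave 2081 runs of 2 or more peaks and 10609 peaks on their own. At least 1 peak was shared in 11.7% of the lone sites, 22.3% of the runs of 2 peaks, 40.7% of the runs of 3 and 67.6% of the 34 runs of 5 or more. Counted per peak, 11.7% of lone peaks (11.1 to 12.3%), 12.2% of peaks in runs of 2 and 16.3% of peaks in runs of 3 (14.2 to 18.7%) were shared. In 532 runs some peaks were shared and others were not, and in 472 of them (88.7%, 85.7 to 91.3%) the peak of highest S-phase score was among the shared ones. Of all 2081 runs, 1598 held only 2 peaks. The share found in M phase rose with score over the whole list, and whether runs go beyond that trend was not tested. In 35 runs every peak was shared, and in 1514 runs none was.

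The partner proteins divided the classes most clearly at M-only sites, which had almost none. An S-phase peak of KLF5, MYC, RAD21 or CTCF was present at 51.0% of the shared S-phase peaks (48.7 to 53.2%), at 46.2% of the S-only peaks (45.3 to 47.0%) and at 7.41% of the M-only peaks (36 of 486, 5.24 to 10.1%). A gap was also present among weak peaks of like score, though smaller. For scores from 50 to 60 the shares were 42.3% at shared M-phase peaks (37.6 to 47.2%), 38.7% at S-only peaks (36.8 to 40.5%) and 6.72% at M-only peaks (4.40 to 9.76%). These shares belong to the overlap rule: where an M-phase peak counted as shared only with 50% of each peak in common, or with summits within 100 bp, many M-phase peaks that touch an S-phase peak became M-only, and the share with a partner was 37.6% or 33.3% of them. In a window of the same size for all, 100 bp to each side of the summit, they were 41.8%, 36.7% and 6.45% for the same scores. M-phase partner lists gave 29.2% at shared M-phase peaks and 6.58% at M-only peaks. The 6 M-only sites of highest fold enrichment that lay over 1000 bp from an S-phase peak had no partner in either phase. They held 13 to 18 tags at 11.16- to 12.09-fold, led by chromosome 14 from 67110204 to 67110737 with 15 tags.

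**Figure D4:**
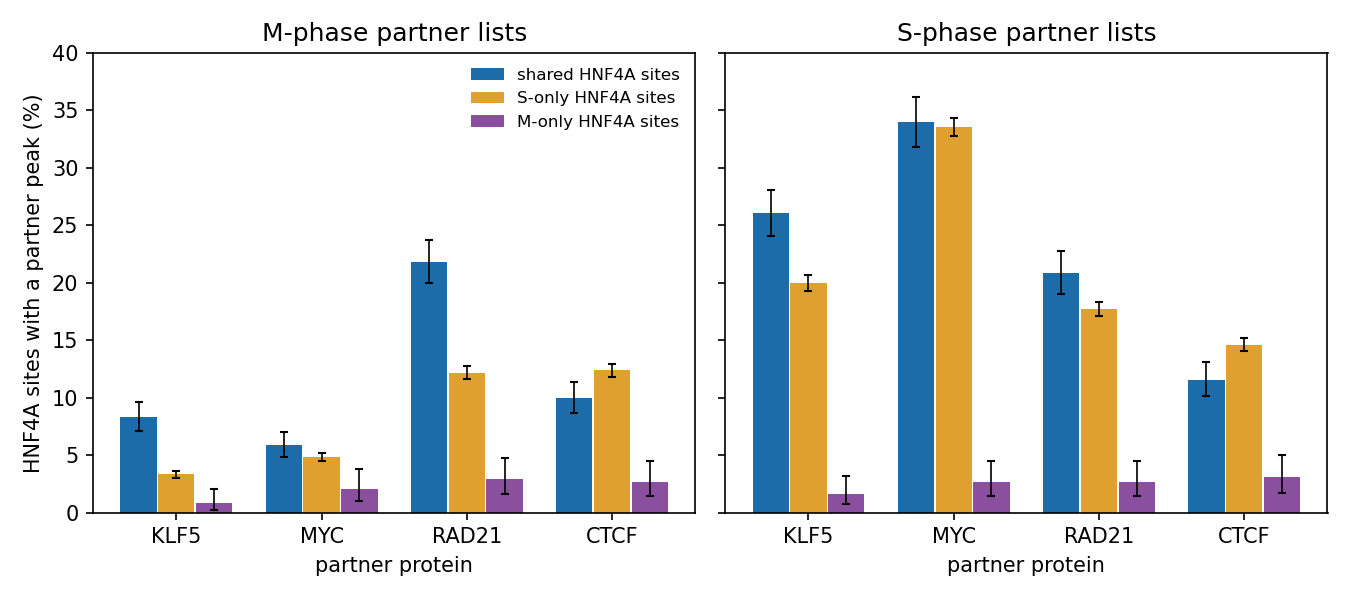
Share of HNF4A sites that overlap a peak of each partner protein (vertical axis, percent), by class of HNF4A site, for M-phase partner lists (left) and S-phase partner lists (right). Bars are shares over 1901 shared, 13536 S-only and 486 M-only sites, and lines their exact 95% intervals; shared and S-only sites were measured on the S-phase peak and M-only sites on the M-phase peak, and M-only sites lie under 4% for each partner in both panels.

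Between shared and S-only sites the S-phase partners differed by a few points. The sign for KLF5 and RAD21 depended on whether peaks were compared within groups of like HNF4A score. KLF5 was present in S phase at 26.0% of shared and 19.97% of S-only peaks, a difference of 6.07 points (4.03 to 8.20), and RAD21 at 20.8% and 17.7%, a difference of 3.12 points (1.23 to 5.10). Within 10 groups of like S-phase HNF4A score, called equal score here, both turned round, to -3.36 points for KLF5 (-5.87 to -0.847) and -4.02 points for RAD21 (-6.42 to -1.62). With the 5000 strongest RAD21 peaks as partners the difference was -0.441 points (-1.03 to 0.315). Scores within a group still differ: the strongest group ran from 322 to 2589 and held 978 of the shared peaks. In the strongest of 3 equal groups, the share found in M phase was 33.9% with KLF5 and 31.3% without. That is 2.64 points (-0.260 to 5.60), and for RAD21 it was 0.368 points (-2.67 to 3.49). The middle and weakest groups gave -1.07 and -0.0464 points for KLF5 and -1.29 and -0.426 for RAD21. MYC was present at 34.0% of shared and 33.6% of S-only peaks, a difference of 0.405 points (-1.84 to 2.70), and at equal score of -9.24 points (-12.0 to -6.52). In the strongest of the 3 groups, the share found in M phase was 30.6% with MYC and 32.7% without, -2.16 points (-4.77 to 0.487). The middle and weakest groups gave -1.29 points (-2.32 to -0.180) and -0.461 points (-0.979 to 0.183) for MYC. CTCF was the less frequent at shared sites by either count, with 11.6% and 14.6%, a difference of -3.05 points (-4.54 to -1.43), and of -3.42 points (-5.37 to -1.46) at equal score. With M-phase partner lists the sign stayed: RAD21 was at 21.8% of shared and 12.2% of S-only sites, 9.66 points (7.78 to 11.7) and 6.81 at equal score (4.51 to 9.11). M-phase KLF5 was at 8.31% and 3.32%, 4.99 points (3.79 to 6.34) and 3.85 at equal score (2.40 to 5.31). HNF4A peaks with none of the 4 S-phase partners were 49.0% of shared and 53.8% of S-only peaks, and at equal score they were 6.49 points (3.62 to 9.37) more frequent among the shared ones.

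Seen by combination, HNF4A peaks with KLF5 but neither MYC nor CTCF had the highest shares found in M phase, beside the 12.3% of all S-phase HNF4A peaks. Of the 556 peaks with KLF5 alone, 19.96% were shared (16.7 to 23.5%), and of the 103 with KLF5 and RAD21, 24.3% (16.4 to 33.7%). RAD21 without other partners gave 18.1% of 463 peaks (14.7 to 21.96%), and KLF5, MYC and RAD21 together 18.6% of 462 (15.2 to 22.5%). MYC alone gave 11.2% of 1742 peaks (9.75 to 12.8%) and no partner 11.3% of 8221 (10.7 to 12.0%). The lowest shares were at MYC, RAD21 and CTCF together, 6.65% of 376 peaks (4.35 to 9.66%), and at KLF5, MYC and CTCF, 7.73% of 233 (4.64 to 11.9%). The combinations also differed in median S-phase score. It was 145 for KLF5 and RAD21, 140 for KLF5, MYC and RAD21, 130 for RAD21 alone and 122 for KLF5 alone. For MYC alone it was 92.0, for MYC, RAD21 and CTCF 96.5, and for KLF5, MYC and CTCF 91.9. The part of score in the order of the combinations was not tested. Sites with all 4 partners, the most crowded ones, were shared in 11.2% of 420 cases (8.34 to 14.6%) although their median S-phase score was 123, against 90.6 at sites with no partner. Peaks with KLF5 but without MYC, whatever else they held, were 8.10% of shared and 4.71% of S-only sites, and at equal score the difference was 1.96 points (0.484 to 3.43).

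KLF5 summits lay closest to HNF4A summits in S phase, and had the shortest median distance in M phase too, where the intervals overlapped. At M-phase HNF4A peaks with the partner in M phase, the median distance between summits was 104 bp for KLF5 (81 to 151, 153 peaks) and 163 bp for RAD21 (145 to 191, 404). It was 196 bp for MYC (133 to 284, 113) and 214 bp for CTCF (142 to 290, 165). At S-phase peaks it was 149 bp for KLF5 (139 to 159, 3198 peaks), then 180 bp for MYC (170 to 191, 5191), 218 bp for RAD21 (2794) and 330 bp for CTCF (2200). The peaks are narrower in M phase, which limits how far apart overlapping summits can be. In S phase the distance at shared and S-only sites was 133 and 151 bp for KLF5, 204 and 177 bp for MYC, 238 and 214 bp for RAD21, and 392.5 and 323 bp for CTCF. The intervals of shared and S-only sites overlapped for each partner, and shared S-phase peaks were also the wider ones.

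At sites that kept HNF4A, the library labelled M-phase KLF5 also had a peak at S-phase KLF5 sites more often than elsewhere. The doubt over that library and the IgG control, given above, touches these values. Of the S-phase HNF4A sites with KLF5, KLF5 was itself found in M phase at 24.0% of 495 shared sites (20.3 to 28.1%) and at 14.3% of 2703 S-only sites (13.0 to 15.7%), a difference of 9.72 points (5.91 to 13.9). KLF5 peaks away from HNF4A peaks were found in M phase in 6.79% of 2798 cases (5.89 to 7.79%). MYC showed no such difference between the classes, with 13.8% and 14.9%, or -1.12 points (-3.78 to 1.93). For RAD21 the shares were 53.0% at shared and 48.8% at S-only sites, 4.20 points (-1.11 to 9.45), and both were below the 72.2% (71.7 to 72.8%) of the 24248 RAD21 peaks away from HNF4A. For CTCF they were 70.5% and 74.4%, -3.99 points (-10.6 to 1.98), against 69.1% away from HNF4A. None of these shares was compared at equal score, and the part of HNF4A or partner peak strength in them was not tested.

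RAD21 was listed in M phase at HNF4A sites where S-phase cells had no RAD21 peak, and more often at shared sites. Of the 1505 shared HNF4A sites without an S-phase RAD21 peak, 200 (13.3%, 11.6 to 15.1%) had one in M phase, against 474 of 11138 S-only sites (4.26%, 3.89 to 4.65%). The difference was 9.03 points (7.36 to 10.9), and at equal HNF4A score 7.90 points (5.95 to 9.85). It was 1.47 points (0.806 to 2.36) when only M-phase RAD21 peaks with an FDR under 5% were taken. By the same measure KLF5 gave 2.84% and 0.831%, or 2.01 points (1.24 to 3.03). For MYC the shares were 1.83% and 0.311%, which is 1.52 points (0.897 to 2.43). CTCF gave 2.86% and 3.21%, a difference of -0.355 points (-1.13 to 0.605). The M-phase lists of HNF4A, KLF5, MYC and RAD21 were all called against the same rabbit IgG library and that of CTCF against goat IgG, and the part of the control in these overlaps was not tested. The M-phase RAD21 library was also deeper than the S-phase one, by a factor of 2.19 in filtered tags (16510005 in M phase, 7531890 in S phase).

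**Figure D5:**
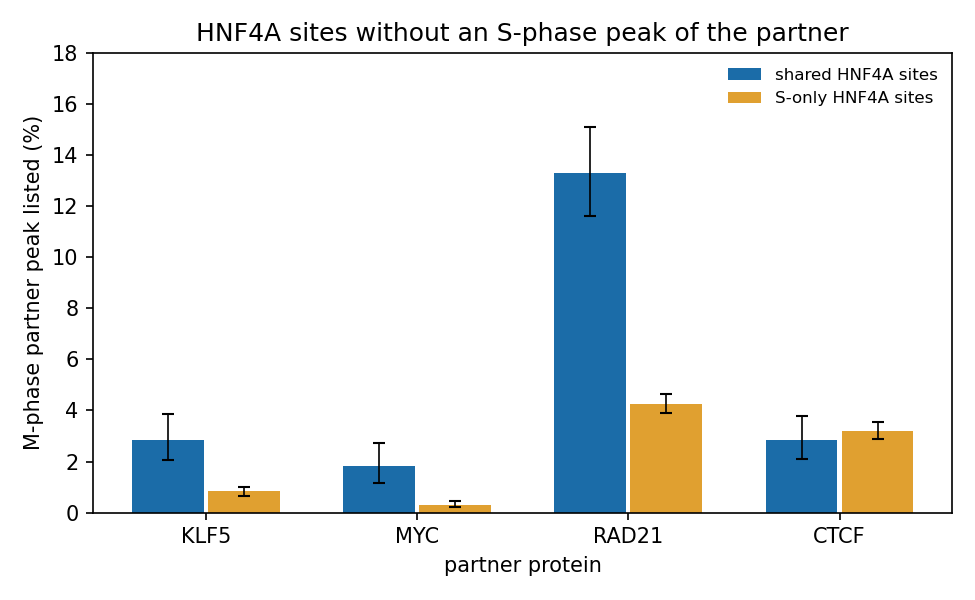
HNF4A sites without an S-phase peak of the partner: share with an M-phase peak of that partner (vertical axis, percent) at shared and S-only HNF4A sites. Bars are shares and lines exact 95% intervals; RAD21 stands at 13.3% of shared and 4.26% of S-only sites, and CTCF at 2.86% and 3.21%.

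The RAD21 peaks concerned were weaker than M-phase RAD21 peaks with an S-phase counterpart, and mostly without CTCF. Seen from the RAD21 list, 199 M-phase RAD21 peaks without an S-phase RAD21 peak overlapped an M-phase HNF4A peak. They had a median of 26 tags at a score of 70.0, and 8.04% of them (16 peaks, 4.67 to 12.7%) overlapped an M-phase CTCF peak. The other 3925 M-phase RAD21 peaks without an S-phase counterpart had a median of 22 tags at a score of 65.9, and 36.5% of them overlapped CTCF (34.95 to 38.0%). M-phase RAD21 peaks with an S-phase counterpart overlapped CTCF in 55.7% of the 203 cases at an M-phase HNF4A peak and in 79.6% of the 18639 cases elsewhere. Their median was 41 tags at a score of 107 in the former and 43 tags at a score of 156 in the latter. An M-phase HNF4A peak was present at 4.83% of the M-phase RAD21 peaks without an S-phase counterpart (4.19 to 5.52%) and at 1.08% of those with one (0.935 to 1.24%). The summits of RAD21 and HNF4A in M phase were a median of 144 bp apart at the 199 peaks (118 to 169) and 191 bp apart at the 203 with an S-phase RAD21 peak (158 to 283).

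Chromosomes differed little in the share of HNF4A sites found in M phase. Over chromosomes 1 to 22 and X it ran from 8.03% on chromosome 22 (22 of 274 peaks, 5.10 to 11.9%) to 15.2% on chromosome 21 (23 of 151, 9.91 to 21.97%). Chromosome 22 was the only one whose interval did not hold the 12.3% of the whole list. M-only peaks were 35.2% of the M-phase peaks on chromosome 8 (37 of 105, 26.2 to 45.2%), against 20.1% in the whole list, and 12.9% on chromosome 17 (11 of 85, 6.64 to 21.98%). Of the 23 intervals of this share, 4 did not hold the 20.1%, those of chromosomes 8 and 18 above it and those of chromosomes 1 and 12 below it.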

How the data were processed

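Peak lists of HNF4A in M and S phase were compared, with the lists of KLF5, MYC, RAD21, CTCF and histone H3. Per the submitters' processing notes, reads went through CASAVA 1.4, BWA alignment to hg18 and MACS 1.4; MACS 1.4.0rc2 is the release in the headers. It was run on 1 alignment per target and phase against IgG, with a p-value cutoff of 1e-05 and 1 tag kept per position, per the file headers. The deposited tag count per peak is a whole number without scaling. The authors' score per peak equals -10 log10 of its p-value, the deposited fold enrichment is a ratio over the local background, and the deposited FDR is a percent.

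Lists were joined by overlap of at least 1 bp in Python 3.11.15 (scipy 1.17.1, pandas 2.3.3, numpy 2.4.6). Tags were divided by the library's filtered tags from the headers. Shares have Clopper-Pearson intervals, differences of shares Newcombe intervals, medians binomial order-statistic intervals, and differences at equal score normal intervals from differences within 10 equal groups of S-phase score, each weighted by the number of peaks in its smaller class. The steps were tested on simulated data. Alternatives were the overlap rule, score and FDR limits, peaks at H3, chromosomes, pairing, list length, partner window and partner strength. Named sites were ranked by fold enrichment, tags or summit distance, leaving out peaks at H3 and those off chromosomes 1 to 22 and X. The members, lists and comparisons were chosen with earlier results of these data known. No genome or annotation of hg18 was used here, and peaks are given by position, with neither gene names nor sequences.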

Additional observations from a re-analysis of the deposited data

How the results depend on the processing

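Of 90 alternative values for 13 results, 55 stayed within their interval and 35 moved beyond it; the cause was not tested. The sign changed in 8: 1 for KLF5, 2 for RAD21 and 5 for MYC, whose reported interval includes 0. The alternatives for M-phase RAD21 peaks without an S-phase counterpart were chosen after seeing the data. With 50% of each peak in common, 42.7% of M-phase and 6.68% of S-phase peaks were shared, and at shared sites the summit distance was 54 bp, 75.1% lay within 100 bp, the width ratio was 0.611 and the tag ratio 0.331. The differences shared minus S-only were then 1.41 points for neighbours within 10000 bp, 0.978 for KLF5, -6.52 for MYC and 6.42 for RAD21 in M phase alone, and 37.6% of M-only peaks had a partner. With summits within 100 bp in place of overlap, 56.6% of M-phase and 8.85% of S-phase peaks were shared, KLF5 differed by 3.13 and MYC by -3.00 points, and 33.3% of M-only peaks had a partner. With a score of at least 100 in both lists, 98.4% of M-phase and 8.92% of S-phase peaks were shared, the summit distance was 52 bp, 75.9% lay within 100 bp, and the width and tag ratios were 0.566 and 0.290. KLF5 then differed by 9.84, MYC by 3.85 and RAD21 in M phase alone by 13.6 points. With only the S-phase peaks of highest score, as many as there are M-phase peaks, 52.5% of M-phase and 51.4% of these S-phase peaks were shared. At equal score the differences were 0.604 points for neighbours, -3.36 for KLF5, -9.24 for MYC and -4.02 for RAD21. With the 5000 strongest partner peaks they were -4.80 for MYC and -0.441 for RAD21, and 2.26% of M-only peaks had a partner. RAD21 in M phase alone differed by 1.47 points with an FDR under 5%. An FDR under 5% in the HNF4A lists gave no values, since no M-phase HNF4A peak passes it. No paired analysis was possible because each target and phase has 1 library, and for the same reason no replicate could be left out. The M-phase and S-phase HNF4A lists both start at 12 tags, and mitotic binding below the caller's cutoff is not listed. The M-phase HNF4A library was the deeper one, with 16813394 filtered tags against 12182221 in S phase. The part of depth in the lists was not tested.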
